A study of Mus musculus with 8 samples.

Results

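The 47 genes described here are a set of cell cycle genes, chosen by name as genes whose RNA is known to rise in dividing cells. All 47 were rows of the count table, which held 32285 genes in 22441 cells from 16 grafts. The list holds 25 genes of mitosis, 17 genes of DNA replication and nucleotide supply, and 5 genes of chromatin and tubulin. Their RNA was measured by 3' single-cell RNA sequencing in CD45+ (immune) cells sorted from grafts of NIT-1 cells, a beta cell tumor line of the non-obese diabetic (NOD) mouse. WT NIT-1 cells and Rnls mutant NIT-1 cells, which lack a working gene for the enzyme renalase, were placed under the skin of opposite flanks of NOD.scid mice, which make no T or B cells of their own. Every recipient then received splenocytes of recently diabetic NOD mice into a vein 4 days later, and the grafts were taken 10 or 17 days after that transfer. The 4 groups (Rnls mutant or WT graft, day 10 or day 17) held 4 grafts each, marked by hashtag antibodies, and the mutation was in the grafted beta cells and not in the immune cells sequenced. The 4 grafts of a group shared 1 library, so that group and library cannot be told apart, and p-values measure the spread between grafts within libraries. Each recipient carried a graft of each genotype, but the labels do not say which grafts came from the same mouse, so the tests treat the grafts as independent.

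A dividing cell first copies its DNA in S phase and then separates the copies in mitosis. Replication genes are switched on at the start of S phase by E2F factors: the Mcm genes encode the helicase that opens the DNA, Pcna the clamp that holds the polymerase, and Rrm1, Rrm2, Tyms and Dut enzymes of nucleotide supply. Mitotic genes follow in G2 phase, when the MuvB complex with B-Myb and FoxM1 acts on a promoter element named CHR: Cdk1 and its partner Ccnb2 drive entry into mitosis, Top2a untangles the chromosomes, Aurkb and Birc5 belong to the complex that corrects spindle attachment, and Ube2c and Cdc20 serve the degradation that ends mitosis. Mki67 encodes the Ki-67 protein, the usual marker of cycling cells. Hmgb2, Tubb5 and Stmn1 are high in dividing cells but are used outside division too. T cells divide after they recognise their antigen, and natural killer (NK) cells divide in response to cytokines.

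Promoter windows from 250 bases before to 50 bases after the gene start were available in the RefSeq annotation of build GRCm38.p6 for 39 of the 47 genes, and 4 are shown as examples of the mitotic and the replication genes that the results below turn on. Ccnb2 lies on the minus strand with its window at chr9:70421505-70421804, Cdk1 on the minus strand at chr10:69352863-69353162, Mcm5 on the plus strand at chr8:75109259-75109558, and Rrm2 on the plus strand at chr12:24708004-24708303. Each is printed 5' to 3' on the strand of the gene, and capitals mark every match of TTTGAA (the CHR element), CCAAT (the NF-Y box) and TTTNNCGC (an E2F-like motif), searched on both strands.
Ccnb2: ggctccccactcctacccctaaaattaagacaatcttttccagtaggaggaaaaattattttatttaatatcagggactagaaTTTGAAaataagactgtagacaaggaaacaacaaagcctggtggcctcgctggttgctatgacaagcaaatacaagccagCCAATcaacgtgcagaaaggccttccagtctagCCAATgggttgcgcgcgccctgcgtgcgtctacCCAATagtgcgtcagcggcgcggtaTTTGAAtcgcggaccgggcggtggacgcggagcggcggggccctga
Cdk1: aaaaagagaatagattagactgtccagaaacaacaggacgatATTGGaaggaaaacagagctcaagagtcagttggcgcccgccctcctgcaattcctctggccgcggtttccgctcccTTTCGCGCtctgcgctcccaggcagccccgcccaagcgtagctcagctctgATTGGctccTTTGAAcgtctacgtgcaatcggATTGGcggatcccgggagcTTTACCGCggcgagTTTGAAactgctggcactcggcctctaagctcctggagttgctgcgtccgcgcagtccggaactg
Mcm5: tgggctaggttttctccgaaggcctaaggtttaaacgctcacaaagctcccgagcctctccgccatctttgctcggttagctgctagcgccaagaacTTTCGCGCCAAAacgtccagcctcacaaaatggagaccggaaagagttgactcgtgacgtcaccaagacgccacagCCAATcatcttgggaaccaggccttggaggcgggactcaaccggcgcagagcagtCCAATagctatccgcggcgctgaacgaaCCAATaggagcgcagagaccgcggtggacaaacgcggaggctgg
Rrm2: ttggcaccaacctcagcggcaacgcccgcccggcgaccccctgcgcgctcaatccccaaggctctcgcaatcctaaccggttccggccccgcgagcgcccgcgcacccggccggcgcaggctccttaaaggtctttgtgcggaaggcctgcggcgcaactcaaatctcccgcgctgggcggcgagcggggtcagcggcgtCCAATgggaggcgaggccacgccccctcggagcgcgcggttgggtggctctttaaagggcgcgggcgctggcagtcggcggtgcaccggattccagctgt
The windows of Ccnb2 and Cdk1 each held 2 CHR matches and 3 CCAAT matches, and Cdk1 also held 2 E2F-like matches. Mcm5 held 3 CCAAT matches and 2 E2F-like matches, which overlap on opposite strands. Rrm2 held 1 CCAAT match and no E2F-like match.

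Over the list, TTTGAA was found in 16 of 21 mitotic promoters (76.2%), 2 of 15 replication promoters (13.3%) and 18.1% of all 27025 promoters. TTTNNCGC ran the other way, with 1 of 21 mitotic promoters (4.76%), 8 of 15 replication promoters (53.3%) and 5.27% of all. CCAAT was common to both, in 19 of 21 mitotic (90.5%) and 11 of 15 replication promoters (73.3%), against 37.9% of all. Among the 9702 promoters of genes tested in all cells, the shares were 12.5% for TTTGAA, 8.67% for TTTNNCGC and 38.9% for CCAAT. Both TTTGAA and CCAAT were present in 20 of the 39 promoters (51.3%) and in 5.23% of those tested. No measurement of binding was used here, and a match is a description of these letters, not a site or a cause.

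The cells held 102058316 UMIs (unique molecular identifiers, each counting 1 captured RNA molecule), with a median of 3520 per cell, and levels below are UMIs per 1000000 UMIs of the same cells (CPM). Depth differed between groups: the median UMIs per cell of a graft were between 3244 and 3851.5 at day 10, between 2881.5 and 3234.5 in Rnls mutant grafts at day 17, and between 4463 and 7822.5 in WT grafts at day 17. The make-up of the grafts differed by day, with macrophages at 15.7% (Rnls mutant) and 17.0% (WT) of cells at day 10 and at 61.8% and 53.9% at day 17. Counts summed over all cells mix how many cells carried the list with the level in each, so the cells that carried most of it are also described on their own. The same barcode occurred in more than 1 library for 84 cells (42 barcodes).

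The list was concentrated in a small part of the cells. Of its 226726 UMIs, 53.7% lay in the 830 cells that the deposited annotation names Stem-Progenitor, which were 3.70% of cells and held 9.37% of all UMIs. The list made 12745.6 CPM there and 1133.8 CPM in the other cells. The cell types were made by clustering on genes that include this list, so this is a description of those cells without a test.

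**Figure D1:**
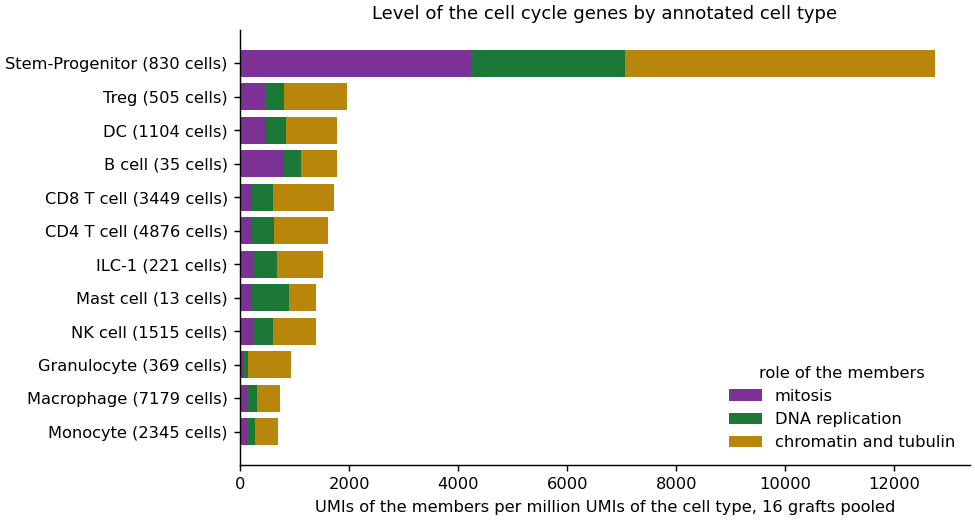
Summed level of the 47 cell cycle genes in each annotated cell type, in UMIs per 1000000 on the horizontal axis, split by role of the genes. The cells annotated Stem-Progenitor stand at 12745.6 CPM, and the next type, regulatory T cells, at 1959 CPM.

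The name Stem-Progenitor went against the markers of these cells. Kit was at 4.7 CPM, Cd34 at 0.1, Flt3 at 0.2 and Mpo at 0.2 CPM, and the defining genes Elane and Gata2 had no UMI. The annotated cells were 2 clusters of the authors' clustering, called cluster 11 (653 cells) and cluster 24 (177 cells) here. Cluster 11 carried T cell genes, with Cd3e at 647 CPM, Cd3d at 640, Trac at 488, Cd8b1 at 151 and Cd4 at 79 CPM, and 97.7% of its cells had a UMI of Cd3e, Cd3d or Trac. Cluster 24 carried NK cell genes, with Klrk1 at 289 CPM, Ncr1 at 277 and Eomes at 127 CPM, and Cd3e at 0.8 CPM, although 36.7% of its cells had a UMI of Cd3d. The cells are therefore named below by cluster number.

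Cells of cluster 11 carried replication and mitotic genes together. At least 3 UMIs of mitotic genes and at least 3 of replication genes were counted in 94.3% of them, and the median cell had 142 UMIs of the list. In cluster 24, 58.8% of cells had both and 21.5% had neither, although the median cell was deeper (12676 UMIs) than in cluster 11 (8820 UMIs). Top2a stood at 1113 CPM in cluster 11 and at 403 CPM in cluster 24, and Rrm2 at 394 and 121 CPM.

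**Figure D2:**
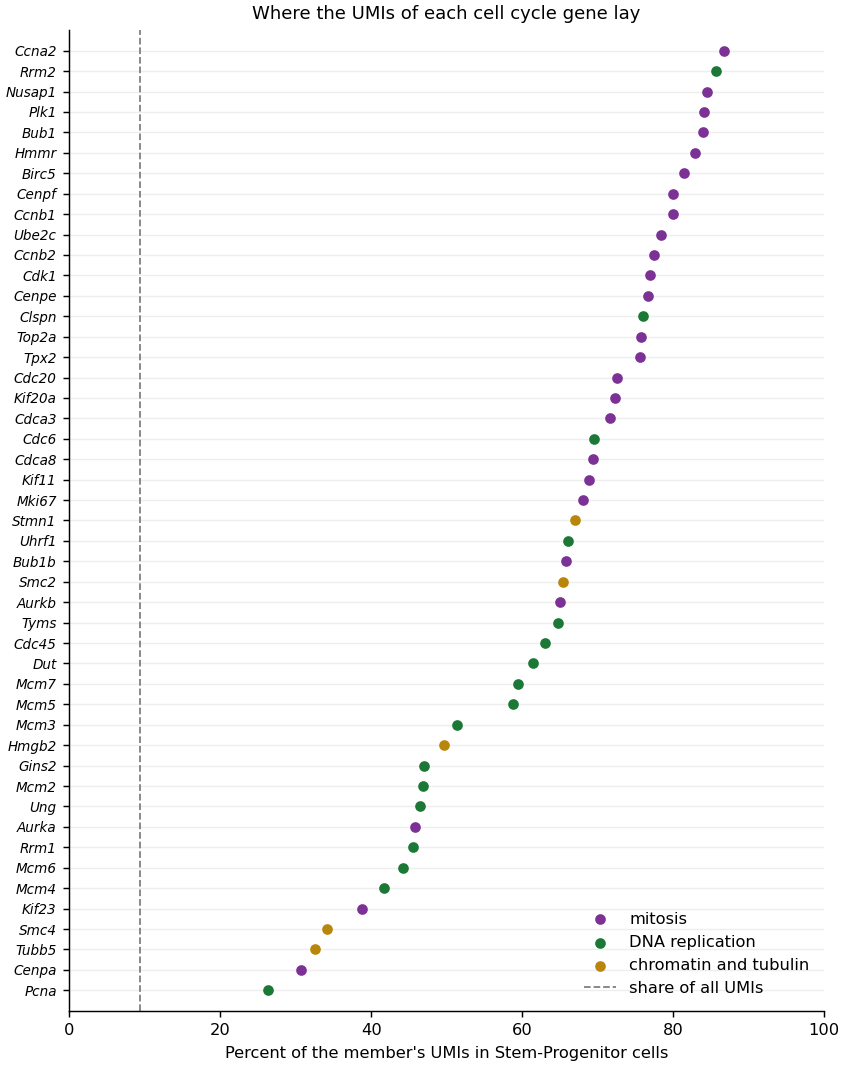
Percent of each gene's UMIs that lay in the cells annotated Stem-Progenitor, 1 point per gene, coloured by role. Ccna2 is highest at 86.8% and Pcna lowest at 26.3%, and the median of the 47 genes is 67.0%.

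The genes differed in how far they were held in these cells. Ccna2, the cyclin of S and G2 phase, had 86.8% of its UMIs there, and Rrm2, the regulated subunit of ribonucleotide reductase, had 85.7%. Cenpa, the centromere histone, had 30.6%, Tubb5, a tubulin, 32.6%, and Pcna 26.3%. The medians were 75.7% for the mitotic genes, 58.8% for the replication genes and 49.7% for the chromatin and tubulin genes. Pcna had a UMI in 80.2% of the annotated cells and in 25.2% of the other cells, whereas Rrm2 had one in 75.5% and 1.48%.

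Outside these clusters, the list ranged from 1959 CPM in regulatory T cells through 1773 in dendritic cells, 1709 in CD8+ T cells, 1610 in CD4+ T cells and 1380 in NK cells to 727 in macrophages and 696 in monocytes. A stricter measure, at least 3 different mitotic genes in 1 cell, was met by 1291 cells (5.75%). It was met by 752 of the 830 annotated cells (90.6%, 95% exact binomial interval 88.4 to 92.5), by 7.61% of dendritic cells (6.11 to 9.33), 3.01% of CD4+ T cells, 2.32% of CD8+ T cells and 1.81% of macrophages. Of the 84 dendritic cells that met it, 73 lay in 1 cluster. It was also met by 7 of 35 B cells (20.0%, 8.44 to 36.9) and 1 of 13 mast cells. The shares were 4.98% in type 1 innate lymphoid cells, 4.36% in regulatory T cells, 2.11% in NK cells and 1.07% in monocytes. No granulocyte met it, 0 of 369 cells (exact binomial interval up to 0.995%), at a median depth of 1319 UMIs per cell. These intervals cover counting error only. With every cell thinned to 1000 UMIs the shares were 55.2% in the annotated cells, 5.71% in B cells, 3.53% in dendritic cells, 0.369% in CD4+ T cells, 0.377% in CD8+ T cells and 0.348% in macrophages. The annotated cells thus remained highest at equal depth.

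The list was higher at day 10 than at day 17 in both genotypes. In all CD45+ cells it made 2829, 1645, 2524 and 2831 CPM in the Rnls mutant grafts at day 10, and 2557, 3571, 3238 and 2845 CPM in the WT grafts. At day 17 it made 1168, 1532, 1478 and 1117 CPM in the Rnls mutant grafts and 1837, 1284, 846 and 1315 CPM in the WT grafts. The days overlapped through 1 graft at each, Rnls mutant replicate 2 at day 10 and WT replicate 1 at day 17. The group means were 2457 ± 560 and 3053 ± 444 CPM at day 10 and 1324 ± 212 and 1320 ± 405 CPM at day 17 (Rnls mutant and WT, SD, n = 4). Without the cells annotated Stem-Progenitor they were 1224 ± 55 and 1327 ± 72 CPM at day 10 and 904 ± 45 and 1077 ± 262 CPM at day 17.

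**Figure D3:**
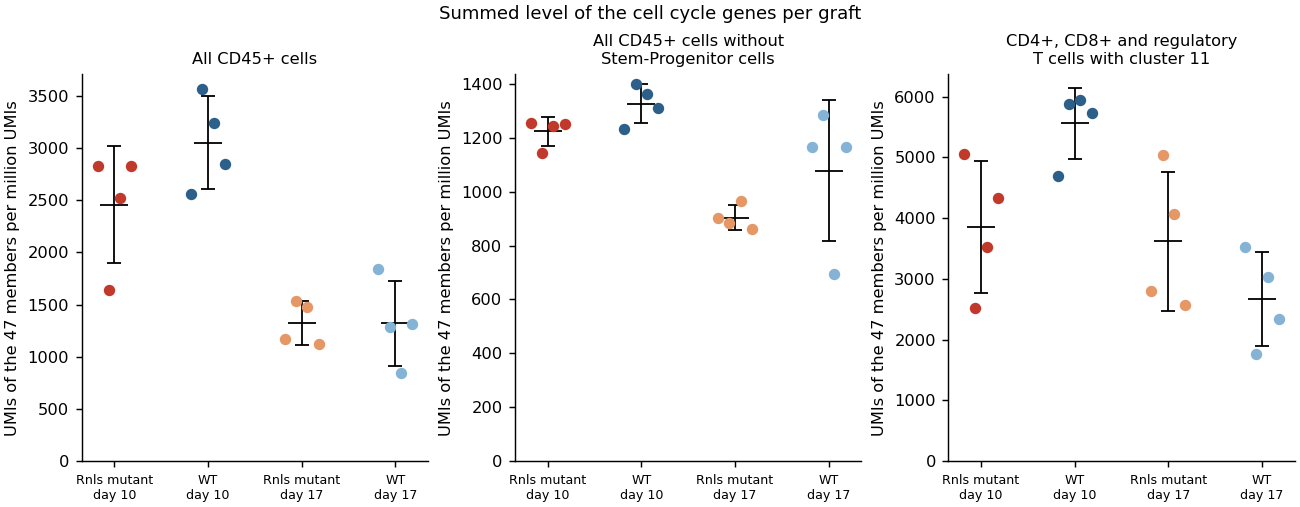
Summed level of the 47 genes per graft in UMIs per 1000000, in all CD45+ cells (left), without the cells annotated Stem-Progenitor (middle) and in T cells with cluster 11, a population defined below (right), by genotype and day. Points are grafts and bars are means with SD (n = 4); in all cells the day 10 grafts lie between 1645 and 3571 CPM and the day 17 grafts between 846 and 1837 CPM.

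The share of cells with at least 3 UMIs of the list followed depth. It was 65.0% ± 3.7 and 63.0% ± 0.92 at day 10 and 41.9% ± 3.6 and 76.6% ± 4.8 at day 17 (Rnls mutant and WT, SD, n = 4), so the deepest group was highest while its CPM was low. At 1000 UMIs per cell it was 18.2% ± 2.8, 19.1% ± 0.67, 8.19% ± 0.56 and 12.2% ± 4.7 in the same order. No difference between genotypes is therefore read from the unthinned share.

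Tested gene by gene, all 47 genes were lower at day 17 than at day 10 in all CD45+ cells, averaged over the genotypes (edgeR quasi-likelihood test, Benjamini-Hochberg adjusted p under 0.05 over 12560 genes, here called). Of all genes tested, 27.5% were called lower in the same fit. The median log2 difference of the list was -1.35, against 0.02 over all genes, and its medians by role were -1.35 for mitosis, -1.46 for replication and -1.16 for chromatin and tubulin.

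Among the replication genes, Rrm2 had the largest difference. It stood at 55.4, 24.3, 47.1 and 58.2 CPM in Rnls mutant grafts and 42.0, 67.0, 52.8 and 39.9 CPM in WT grafts at day 10, and at 8.9, 15.1, 10.8 and 9.8 CPM and 24.5, 8.1, 8.3 and 11.7 CPM at day 17. The 2 days met only where Rnls mutant replicate 2 at day 10 (24.3) lay next to WT replicate 1 at day 17 (24.5). The log2 difference was -2.04 (SE 0.24, edgeR adjusted p = 3.3e-06).

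Mcm5, a subunit of the helicase whose promoter is shown above, had 28.1, 12.4, 23.5 and 26.0 CPM in Rnls mutant and 19.2, 26.6, 27.7 and 21.8 CPM in WT grafts at day 10. At day 17 it had 10.5, 7.6, 8.1 and 10.9 CPM, and 10.5, 3.3, 4.1 and 11.7 CPM, so that every day 17 graft was below every day 10 graft. The difference was -1.58 (SE 0.22). Dut, the enzyme that removes dUTP, differed by -1.84, Clspn, a replication checkpoint protein, by -1.74 and Gins2, a partner of the helicase, by -1.37, and the days did not overlap in any of these either. In all, 6 of the 47 genes, named after their values were seen, had every day 17 graft below every day 10 graft: Cdca3, Mcm5, Gins2, Clspn, Uhrf1 and Dut. Of all 12560 genes tested, 6.51% had this order of CPM.

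Pcna had the smallest difference. It was at 129.0, 103.8, 100.5 and 107.9 CPM and at 96.5, 110.3, 102.4 and 88.3 CPM at day 10, and at 90.9, 101.8, 88.1 and 84.9 CPM and at 97.0, 88.1, 85.3 and 77.5 CPM at day 17 (Rnls mutant, then WT). The days overlapped widely, and the difference of -0.29 (SE 0.07) was called with an adjusted p of 0.0019.

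Among the mitotic genes, Top2a had 143.6, 60.3, 113.9 and 147.0 CPM in Rnls mutant grafts and 157.5, 225.5, 182.0 and 169.2 CPM in WT grafts at day 10. At day 17 it had 41.5, 73.3, 74.0 and 38.4 CPM, and 72.7, 28.9, 23.6 and 44.8 CPM. Rnls mutant replicate 2 at day 10 lay within the day 17 values and all other day 10 grafts lay above them. The log2 difference of Top2a was -1.63 (SE 0.23), that of Birc5 -1.65, of Ccnb2 -1.62, of Cdk1 -1.37 and of Ube2c -1.28.

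Mki67 had 62.5, 26.5, 47.1 and 51.0 CPM in Rnls mutant and 56.8, 82.3, 64.6 and 61.2 CPM in WT grafts at day 10. It had 25.7, 34.6, 35.9 and 16.1 CPM, and 45.9, 23.7, 20.9 and 22.2 CPM, at day 17. All day 10 grafts but Rnls mutant replicate 2 were above all day 17 grafts, and the difference was -1.03 (SE 0.20, adjusted p = 0.000344). Of the chromatin and tubulin genes, Stmn1 differed by -1.34, Hmgb2 by -1.20 and Tubb5 by -0.53.

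**Figure D4:**
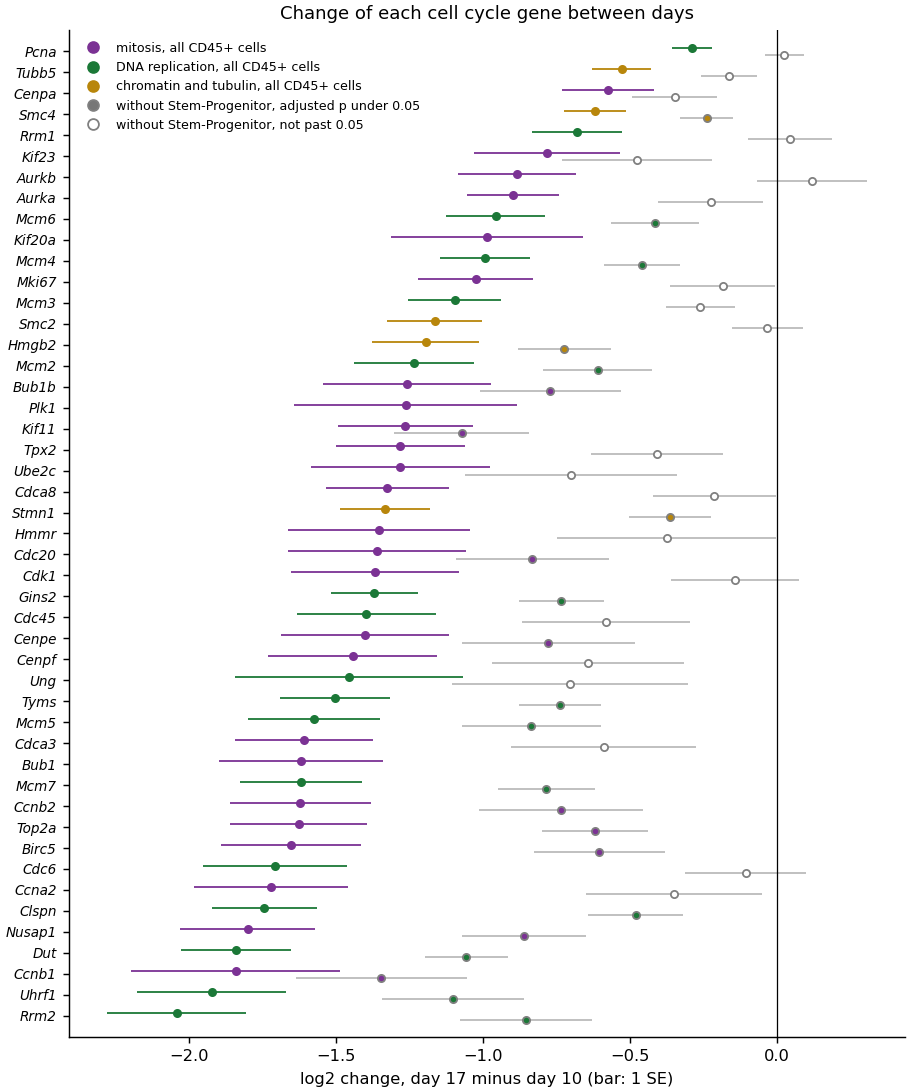
Log2 difference between day 17 and day 10 for each of the 47 genes with SE, in all CD45+ cells and, where the gene was tested, without the cells annotated Stem-Progenitor. All points for all cells lie below 0, from -2.04 (Rrm2) to -0.29 (Pcna), and most lie nearer to 0 once the annotated cells are left out.

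Part of this difference lay in the annotated cells, which were 4.96% and 5.53% of cells at day 10 and 1.09% and 0.706% at day 17 (Rnls mutant and WT, summed over grafts). Their share of the list's UMIs was 57.7%, 62.7%, 34.1% and 23.3% in the same order. Without them, 44 of the 47 genes were tested (Plk1, Kif20a and Bub1 had too few UMIs), and 23 were called lower, where 24.9% of 12284 genes were. The median difference was -0.59. Replication genes were called in 11 of 17 cases and mitotic genes in 9 of 22. Dut differed by -1.06 and Tyms, which makes thymidylate, by -0.74. The differences of Aurkb, Pcna and Rrm1 were above 0 and not called.

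Inside the annotated cells the level ran the other way. The list made 10417 and 13889 CPM in them at day 10 and 17697 and 18748 CPM at day 17 (Rnls mutant and WT, summed over grafts). These sums also reflect a change of make-up. Cluster 24, where the list was lower than in cluster 11, held 113 and 59 cells at day 10 and 3 and 2 at day 17. In cluster 11 alone the list made 13527 to 15004 CPM in Rnls mutant grafts and 13548 to 16942 CPM in WT grafts at day 10, and 17368 to 18407 CPM and 15633 to 25218 CPM at day 17. The Rnls mutant grafts did not overlap between days and the WT grafts did. The mitotic genes went from 4421 and 5094 CPM at day 10 to 6765 and 8442 CPM at day 17 in cluster 11, while the replication genes were at 3541 and 3226 CPM and at 3119 and 2878 CPM. Mki67 was at 361.7 and 382.2 CPM at day 10 and at 639.5 and 804.6 CPM at day 17. These values rest on 217 and 362 cells of cluster 11 at day 10 and on 57 and 17 at day 17, where 1 WT graft had none, and they are a description without a test, since the cells were clustered on these genes.

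Within single cell types, where the annotated cells are left out by construction, fewer genes had enough UMIs. Only genes that passed the filter are counted, and part of the list passed in each type. In macrophages, 12 of 25 genes tested were lower at day 17, 7 of the 9 mitotic genes tested among them, where 25.3% of all genes tested were. The median difference of the 25 was -0.67 and 23 were below 0. Hmgb2, a chromatin protein, was at 260, 203, 166 and 241 CPM in Rnls mutant and 224, 179, 223 and 182 CPM in WT macrophages at day 10, and at 101, 97.9, 108 and 124 CPM and 129, 201, 87.6 and 172 CPM at day 17. The Rnls mutant grafts did not overlap between days and the WT grafts did. The differences were -0.90 for Hmgb2 (SE 0.15, adjusted p = 8.2e-05), -2.20 for Nusap1, a spindle protein, -0.46 for Tubb5 and -1.58 for Ube2c. Without the 5% of cells with most UMIs 4 genes were called in macrophages, and without Rnls mutant replicate 2 of day 10 the number was 7.

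In CD4+ T cells, 6 of 23 genes were lower at day 17, where 17.7% of all genes tested were, and the median difference was -0.17, with 8 genes above 0. They were Stmn1 (-0.84, SE 0.28), Kif11, a spindle motor (-1.22, SE 0.43), Rrm2 (-1.19, SE 0.43), Ube2c (-1.26, SE 0.47), Dut (-0.54, SE 0.15) and Top2a (-0.46, SE 0.17). Without Rnls mutant replicate 4 of day 10, or without Rnls mutant replicate 3 of day 17, 3 genes were called.
The other types gave 1 called gene each, and the median difference was above 0 in CD8+ T cells (0.18, 10 of 15 genes above 0), NK cells (0.26, 5 of 8) and regulatory T cells (0.42, 7 of 7), and below 0 in dendritic cells (-0.11, 8 of 19 above 0). In CD8+ T cells it was Hmgb2, of 15 genes (-0.24, adjusted p = 0.04998, background 10.8%), and the call was lost without any 1 of Rnls mutant replicates 1, 3 and 4 or WT replicates 2, 3 and 4 of day 10, or Rnls mutant replicates 3 and 4 of day 17, and became 2 genes without Rnls mutant replicate 1 or WT replicate 2 or 4 of day 17. In NK cells it was Cenpa, of 8 genes (-0.85, adjusted p = 0.025, background 6.56%), with 0 called without Rnls mutant or WT replicate 1 of day 10 or without Rnls mutant replicate 3 or WT replicate 2 of day 17. In dendritic cells it was Tubb5, of 19 genes (-0.69, adjusted p = 0.017, background 13.6%), with 2 called without Rnls mutant or WT replicate 2 of day 10 or Rnls mutant replicate 4 of day 17. In regulatory T cells 1 of 7 genes was called, and it was higher at day 17: Pcna at 1.19 (SE 0.34, adjusted p = 0.019), where 7.89% of all genes tested were called higher. It was lost without Rnls mutant replicate 2 or WT replicate 1 of day 17, and 2 genes were called without WT replicate 3.

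Because clusters 11 and 24 carried T and NK cell genes, 2 further populations were made after seeing the data: CD4+, CD8+ and regulatory T cells with cluster 11, and NK cells with cluster 24. Both clusters were made on genes that include the list and held most of their cells at day 10. Genes could therefore pass the filter through day 10, where the list was higher. The counts between days below are a description and are not read as support for a change. In T cells with cluster 11, all 47 genes were tested and 28 were lower at day 17, where 21.1% of all genes tested were. The median difference was -0.73. Called were 14 of 17 replication genes, 4 of 5 chromatin and tubulin genes and 10 of 25 mitotic genes. Cdc6, which loads the helicase, differed by -1.94, Gins2 by -1.43, Mcm7 by -1.10 and Dut by -1.06. In NK cells with cluster 24, 10 of 23 genes were lower, where 14.6% of all genes tested were. All 23 were below 0 with a median of -0.96, Rrm2 at -2.49 and Dut at -1.52. In NK cells alone 8 genes passed the filter, so most of the 23 passed only with cluster 24. That cluster held 113 and 59 cells at day 10 and 3 and 2 at day 17 (Rnls mutant and WT). The shared direction of the 23 genes is therefore not read as a result. Leaving out 1 graft gave 5 genes (without replicate 1 of either genotype at day 10 or replicate 2 of either at day 17), 6 genes (without Rnls mutant replicate 4 or WT replicate 1 at day 17) or 16 genes (without WT replicate 3 at day 17).

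Rnls mutant and WT grafts were compared at each day. Counts of genes at an unadjusted p under 0.05, and medians, are given for these comparisons without the same over all genes. No result is read from them. In all CD45+ cells edgeR called 0 of the 47 genes at day 10, where 0.0796% of all genes were called in either direction. Of the 47, 45 were below 0 and 7 had an unadjusted p under 0.05, and DESeq2 called 0. The median difference was -0.32, with -0.48 for the mitotic genes and -0.15 for the replication genes. The gene with the smallest p was Stmn1, a tubulin-binding protein, at 97.1, 42.1, 81.0 and 95.1 CPM in Rnls mutant grafts and 119.0, 124.3, 122.9 and 109.1 CPM in WT grafts. All Rnls mutant grafts were below all WT grafts, and the log2 difference was -0.62 (SE 0.21, edgeR adjusted p = 0.45). Top2a (-0.69), Tubb5 (-0.38) and Mcm7 were the other genes without overlap, 4 of 47, where 3.11% of all genes tested had every Rnls mutant graft below every WT graft. Mki67 differed by -0.53, Ube2c by -0.64, Ccnb2 by -0.52, Birc5 by -0.48 and Cdk1 by -0.47, against -0.15 for Rrm2, -0.11 for Mcm5 and 0.12 for Pcna, and none of these was called.

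At day 17 edgeR called 0 of 47 in all cells (background 0.0159%), 33 genes were above 0, the median was 0.12, 1 gene had an unadjusted p under 0.05, and DESeq2 called 0. This direction did not hold without the deepest or the annotated cells. Without the 5% of cells with most UMIs, 39 of 47 genes were below 0 with a median of -0.26, and without the cells annotated Stem-Progenitor 32 of 44 were below 0 with a median of -0.24, again with 0 called. At day 10 the medians without these cells were -0.38 and -0.36, in the same direction as with them. The difference between days of the genotype contrast was called for 0 of 47 genes (background 0.143%), with 10 at an unadjusted p under 0.05, a median of 0.57 and 0 by DESeq2. That median was -0.01 without the 5% of cells with most UMIs (23 genes above 0 and 24 below) and 0.18 without the annotated cells (26 above and 18 below).

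In T cells with cluster 11 the summed list made 5054, 2520, 3524 and 4325 CPM in Rnls mutant and 4700, 5872, 5953 and 5732 CPM in WT grafts at day 10, with 1 Rnls mutant graft above the lowest WT graft. At day 17 it made 2795, 5033, 4067 and 2572 CPM and 3531, 1768, 3026 and 2336 CPM, with overlap. The sum was not tested, and gene by gene the genotypes differed for 2 genes at day 10. Of the 47 genes, 46 were below 0 in Rnls mutant grafts, the median was -0.54, 27 had an unadjusted p under 0.05, and 2 were called lower, where 0.918% of 9695 genes were. Mcm7, a helicase subunit, was at 96.4, 42.0, 58.6 and 87.1 CPM in Rnls mutant and at 110.6, 138.1, 138.4 and 105.5 CPM in WT grafts. Stmn1 was at 163.0, 69.5, 112.2 and 145.3 CPM and at 214.4, 212.4, 229.8 and 236.0 CPM. For both genes every Rnls mutant graft was below every WT graft. The share of all genes tested with this order was not computed for this population, so the order is not read as support. The differences were -0.83 for Mcm7 (SE 0.20, edgeR adjusted p = 0.041) and -0.90 for Stmn1 (SE 0.21, adjusted p = 0.042). Both calls were lost without 1 graft in several cases: 0 genes were called without Rnls mutant replicate 2 or 3 of day 10 or without WT replicate 2, 3 or 4 of day 10, 1 was called without Rnls mutant replicate 3 of day 17, and 8 were called without Rnls mutant replicate 1 of day 10. Without the filter on low counts 27 genes were called, all lower, over 19784 genes. The share of all genes called in that fit is not given here, so the count is not read as particular to the list. In the same cells Ube2c differed by -1.08, Top2a by -0.92, Ccnb2 by -0.82, Birc5 by -0.77, Cdk1 by -0.76 and Mki67 by -0.74, against -0.33 for Rrm2, -0.24 for Mcm5 and 0.06 for Pcna, and none of these was called.

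At day 17 the same population had 45 of 47 genes above 0, a median of 0.44, 6 genes at an unadjusted p under 0.05 and 0 called by edgeR (background 0.567%) or DESeq2, and 6 were called without the filter on low counts. The change of the genotype contrast between days was above 0 for 46 of 47 genes with a median of 1.07, and 3 genes were called higher, where 1.09% of all genes were. Tubb5 was at 354.7, 193.5, 252.4 and 302.6 CPM and at 348.6, 389.2, 408.1 and 424.3 CPM at day 10, and at 214.1, 348.3, 299.7 and 191.4 CPM and at 188.0, 151.0, 165.8 and 222.4 CPM at day 17 (Rnls mutant, then WT). It was mostly lower in Rnls mutant grafts at day 10 and mostly higher in them at day 17, with overlap at both days. The difference between days was 1.13 (SE 0.25, edgeR adjusted p = 0.026) for Tubb5, 1.49 (SE 0.35, adjusted p = 0.033) for Stmn1 and 1.89 (SE 0.46, adjusted p = 0.047) for Nusap1. No gene was called without Rnls mutant replicate 3 or WT replicate 2, 3 or 4 of day 10, or without Rnls mutant replicate 2 or 3 of day 17. There was 1 without WT replicate 4 of day 17, and there were 6 without Rnls mutant replicate 1 of day 10 or WT replicate 1 of day 17. DESeq2 called 5 genes, and edgeR without the filter on low counts called 24. The shares of all genes called under these alternatives are not given here.

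**Figure D5:**
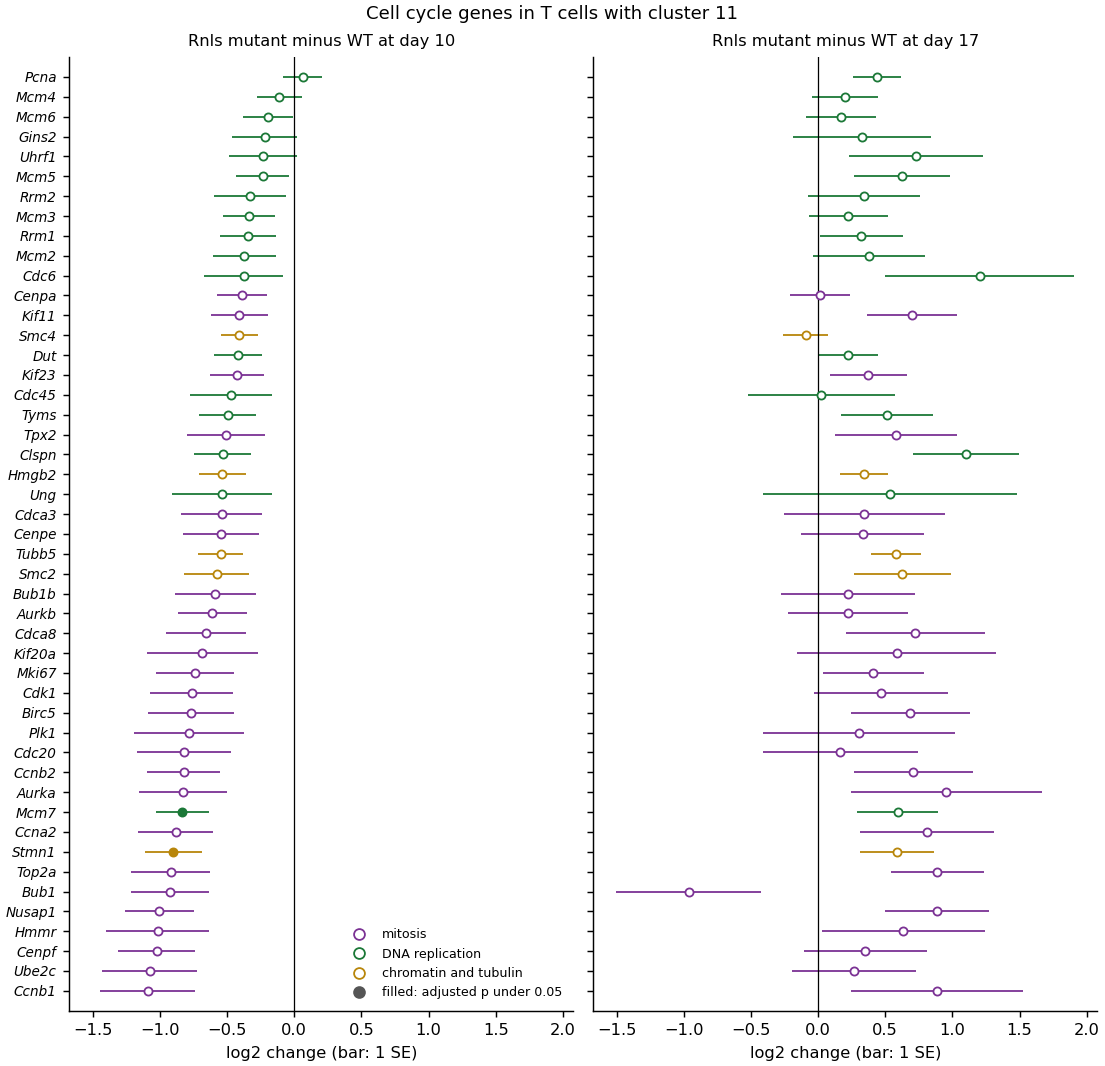
Log2 difference between Rnls mutant and WT grafts for each of the 47 genes in T cells with cluster 11, with SE, at day 10 and at day 17. At day 10 all points but Pcna, 46 of 47, lie below 0, and at day 17, 45 of 47 lie above 0; only Mcm7 and Stmn1 at day 10 passed the adjusted threshold.

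The number of cluster 11 cells moved with these values. They were 3.66% to 9.09% of T cells in Rnls mutant grafts at day 10 (mean 6.17% ± 2.33) and 9.14% to 10.8% in WT grafts (9.84% ± 0.70, SD, n = 4), and 3.70% ± 2.24 and 1.89% ± 1.69 at day 17. One WT graft at day 17 had 0 of 108 T cells in cluster 11 (95% exact binomial interval up to 3.36%). The clusters were made on genes that include the list, so these shares were not tested. At day 17, 47.4% of cluster 11 cells of Rnls mutant grafts also had a UMI of a myeloid marker, against 4.15% at day 10 (9.12% and 23.5% in WT grafts at days 10 and 17), and the part of this in the values was not tested.

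In NK cells with cluster 24 the genotype difference ran above 0 at day 10. Of 23 genes tested, 21 were above 0 with a median of 0.22, 2 had an unadjusted p under 0.05 and 0 were called by edgeR (background 0.492%) or DESeq2. Ube2c, the ubiquitin-conjugating enzyme of mitotic exit, had the smallest p (1.26, edgeR adjusted p = 0.15). Cluster 24 held 72, 8, 14 and 19 cells in Rnls mutant grafts and 40, 9, 4 and 6 cells in WT grafts at day 10, or 19.9% ± 11.6 and 5.97% ± 5.14 of these NK cells, with the highest share, 36.4%, in Rnls mutant replicate 1. Inside cluster 24 at day 10 the level of the list ran the other way. It made 5136, 3355, 4852 and 5526 CPM in Rnls mutant grafts and 6426, 6983, 8368 and 9223 CPM in WT grafts. These levels rest on the few cells given above and were not tested. At day 17 cluster 24 held 1, 0, 2 and 0 cells and 0, 0, 2 and 0 cells. There, 0 of 23 genes were called by edgeR (background 0.123%) with 2 at an unadjusted p under 0.05, and the difference between days gave 0 called (background 0.369%) and 0 at an unadjusted p under 0.05. DESeq2 called 0 in both.

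Inside the annotated types without the 2 clusters, 1 genotype result was called, and it is not read as support for a difference. At day 10 edgeR called 0 of 23 genes in CD4+ T cells (7 at an unadjusted p under 0.05, background 0.229%), 0 of 15 in CD8+ T cells (3, 0.314%), 0 of 7 in regulatory T cells (3, 0.172%), 0 of 8 in NK cells (0, 0.0306%), 0 of 25 in macrophages (1, 0.0322%) and 0 of 19 in dendritic cells (6, 0.0175%). DESeq2 called 0 in each. The smallest p in CD4+ T cells belonged to Mcm7 (-0.78, adjusted p = 0.136) and in CD8+ T cells to Top2a (-0.63, adjusted p = 0.175), while Pcna differed by 0.45 in both. In dendritic cells 18 of 19 genes were below 0, and Mki67 had the smallest p (-1.38, adjusted p = 0.565).

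At day 17 edgeR called 0 in the same order of types, with 0, 1, 3, 1, 0 and 0 genes at an unadjusted p under 0.05 and backgrounds of 0.433%, 0.376%, 0.0429%, 0.184%, 0% and 0.0175%. The difference between days gave 0 calls in CD4+ T cells (1 at an unadjusted p under 0.05, background 0.636%), CD8+ T cells (4, 0.658%), NK cells (0, 0.398%), macrophages (1, 0.0322%) and dendritic cells (3, 0.0351%), and DESeq2 called 0 in these. In regulatory T cells, 1 of 7 genes was called higher (background 0.815%). This was Stmn1, which rested on few UMIs: 0, 0, 1 and 0 in Rnls mutant and 4, 11, 14 and 7 in WT grafts at day 10, and 0, 9 and 10 in Rnls mutant and 0, 1 and 0 in WT grafts at day 17, with 1 graft of each genotype at day 17 left out for having under 10 such cells. The order of the genotypes was opposite on the 2 days, and no size is read from groups with 1 UMI. Almost all UMIs lay in WT grafts of day 10 and Rnls mutant grafts of day 17. Stmn1 could pass the filter on low counts only through these groups, so the call is not read as support. The call was lost without WT replicate 2 or 3 of day 10, and 2 genes were called without replicate 1 of any group or WT replicate 4 of day 10.

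Mki67 was also tested alone by exact two-sided permutation tests of CPM over grafts, 14 tests in all. In all CD45+ cells the Rnls mutant grafts had 46.8 ± 14.99 CPM and the WT grafts 66.2 ± 11.2 CPM at day 10 (SD, n = 4, exact p = 0.0857, adjusted 0.4), and 28.1 ± 9.19 and 28.2 ± 11.9 CPM at day 17 (exact p = 1). In CD4+ T cells at day 10 it was 11.5 ± 1.91 and 22.3 ± 5.93 CPM, and in dendritic cells 16.1 ± 8.27 and 40.4 ± 7.18 CPM. In both types every Rnls mutant graft was below every WT graft, which gave the smallest p that 4 against 4 grafts allow (exact p = 0.0286), and neither held after adjustment over the 14 tests (adjusted p = 0.2). The remaining tests in single types gave p between 0.2 and 0.857. In regulatory T cells at day 17, 3 grafts against 3 could not go below 0.1.

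The ratio of replication to mitotic genes over all CD45+ cells differed in range. The summed CPM of the replication genes divided by that of the mitotic genes lay between 0.959 and 1.16 in Rnls mutant grafts and between 0.709 and 0.912 in WT grafts at day 10, without overlap. At day 17 it lay between 0.725 and 1.22 and between 0.811 and 1.28. It is a ratio of 2 sums over chosen genes and was not tested.

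Other genes of the pathway, taken from lists of S phase genes, mitotic genes and histones, were mostly lower at day 17 in all CD45+ cells, where 27.5% of all genes tested were called lower and 30.1% higher. Of 31 other S phase genes, 28 were lower at day 17 and none higher, with a median of -1.05. Among them were Gmnn (geminin, which prevents a second round of replication) at -1.60, Ccne1 (the cyclin of S phase entry) at -1.80 and Slbp (the histone RNA binding protein) at -0.96. Of 36 other mitotic genes 34 were lower, such as Racgap1 at -1.32 and Cks1b at -1.33, and Gas2l3 was higher at 0.85 (SE 0.19). Of 15 histone genes 14 were lower, with Hist1h4c at -1.93, and H1f0, the linker histone of resting cells, was higher at 0.33 (SE 0.12). In single types this was less uniform. Of the other S phase genes, 13 were lower and 1 higher of 22 tested in macrophages (median -0.41, where 25.3% of all genes tested were lower). In CD4+ T cells 4 were lower and 1 higher of 19 (median 0.03, where 17.7% of all genes tested were lower and 18.8% higher). In CD8+ T cells 0 were lower and 1 higher of 17 (median 0.21, where 10.8% were lower and 10.6% higher).

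The 26 regulators were divided, with 13 lower, 3 higher and 10 not called at day 17 and a median of -0.31, against the same 27.5% lower and 30.1% higher over all genes. The D cyclins Ccnd2 (-1.09) and Ccnd3 (-0.61), their kinase Cdk6 (-0.89), the anti-proliferative gene Btg1 (-0.49) and Mybl2, which encodes B-Myb (-1.66), were lower. The 3 that were higher are named after their values were seen: Rb1, the brake on E2F factors, at 0.32 (SE 0.06), Btg2, a relative of Btg1, at 0.53 (SE 0.15), and Lin54, the MuvB subunit that binds the CHR element, at 0.45 (SE 0.11). The inhibitors Cdkn1a (-0.07, adjusted p = 0.71) and Cdkn1b (-0.01, adjusted p = 0.92) were not called. Between genotypes, some genes of these lists were called. In T cells with cluster 11 at day 10, 3 of 14 histone genes tested were lower in Rnls mutant grafts, where 0.918% of all genes tested were. They were Hist1h4c (-0.997, SE 0.15, edgeR adjusted p = 0.0016), Hist1h2ap (-1.45, adjusted p = 0.014) and Hist1h1d (-1.16, adjusted p = 0.026). How these calls held with a graft left out or with the block was not examined. The difference between days was called higher for Nuf2 (2.37, edgeR adjusted p = 0.032) and Hist1h2ap (2.48, adjusted p = 0.021) in T cells with cluster 11 and for Ccnd2 in NK cells (1.57, adjusted p = 0.027). These were 1 of 35 other mitotic genes and 1 of 14 histone genes tested, where 1.09% of all genes were called higher. In NK cells it was 1 of 13 regulators, where 0.398% of all genes were called in either direction.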

How the data were processed

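The authors deposited UMI counts per gene and cell with cell annotations (graft, cluster, cell type). Per the labels, Cell Ranger and mm10 were used in processing, with no version given in the sources used here; the clustering tool is likewise not given. Deposited cells had at least 1001 UMIs, and mitochondrial reads reached at most 9.74%. No doublet caller was run here, and whether the authors removed doublets is not given in the sources used here.

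Counts were summed per graft and cell type for grafts with at least 10 such cells. They were tested with edgeR 4.0.16 (quasi-likelihood, TMM, filterByExpr, 4 groups in 1 fit, Benjamini-Hochberg adjustment) in R 4.3.3, and with DESeq2 1.42.0 (adjusted p left as NA where so given) as an alternative. The test was tried on simulated data with known changes. Mki67 CPM was compared by exact permutation tests over all assignments of grafts to genotypes (NumPy 2.4.6). Binomial intervals were computed with SciPy 1.17.1. CPM is UMIs per 1000000 UMIs of the cells summed. Cells were thinned to 1000 UMIs by random draws. Totals per graft were 1742746 to 9729233 UMIs.

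The genes and lists were chosen with earlier results of these data known. Named in the main comparisons were 13 genes picked by role (Mki67, Top2a, Cdk1, Ccnb2, Birc5, Ube2c, Pcna, Mcm5, Rrm2, Tyms, Stmn1, Tubb5, Hmgb2), at most 5 called genes per direction and, where none was called, the gene with the smallest p. From the other lists at most 3 called genes were named, with the regulators Cdkn1a, Cdkn1b, Btg1, Ccnd2 and Ccnd3. Alternatives were no filter on low counts, another cell minimum, the hashtag number as a block, each graft left out in turn, other thresholds on UMIs, and populations without the deepest or the annotated cells.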

Additional observations from a re-analysis of the deposited data

Results flagged for a closer look

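Among 94 sets of 4 grafts examined for a single distant value, 3 (3.19%) had one, where chance gives about 1 in 20. In all CD45+ cells of WT grafts at day 17, Mki67 was at 45.9 CPM in replicate 1 and between 20.9 and 23.7 CPM in the others. In dendritic cells of WT grafts at day 17, the list made 2851 CPM in replicate 4, far from the other 3 grafts. In NK cells with cluster 24 of WT grafts at day 17, cluster 24 made 7.41% in replicate 3 (2 of 27 cells) and had no cell in the others.

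For 4 results the difference between Rnls mutant and WT grafts itself differed between days 10 and 17 by the interaction term of the edgeR fit. In T cells with cluster 11 the log2 interaction was 1.89 for Nusap1, 1.49 for Stmn1 and 1.13 for Tubb5. In regulatory T cells it was 8.44 for Stmn1, a fitted value that rests on groups with 1 UMI. It is no measure of size and is not read as support for a change.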

How the results depend on the processing

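In all CD45+ cells, the 47 calls between days and the 0 calls between genotypes were the same without any 1 graft, with DESeq2, without the filter on low counts and with the block. Without the cells annotated Stem-Progenitor, 23 genes were called between days and the log2 ratio of the list's CPM went from -1.05 to -0.37. Single types and small groups set the limit: few UMIs per graft left 7 to 25 genes for testing. The causes of the shifts below were not tested.

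The labels do not say which grafts came from the same mouse, nor that the hashtag number marks it. For grafts with the same hashtag number, the correlations of deviations from the group means were mixed. They were 0.422, -0.317, -0.0609 and -0.114 at day 10 and -0.101, 0.192, 0.116 and 0.0152 at day 17. The values 0.422 and 0.192 were the highest of all pairs at their day, and these correlations cannot tell whether the grafts were paired by number. With the hashtag number as a replicate block, the calls between days in CD8+ T cells went to 0, those between genotypes at day 10 in regulatory T cells to 1 and in T cells with cluster 11 to 0, those for the difference between days in T cells with cluster 11 to 1 (Tubb5), and no other count moved by over 1.5 times.

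Without the filter on low counts, calls between days numbered 11 in CD4+ T cells, 2 in CD8+ T cells, 0 in regulatory T cells, 21 in macrophages, 3 in dendritic cells and 27 in NK cells with cluster 24. Calls between genotypes at day 10 were then 1 in CD4+ T cells, 2 in regulatory T cells, 4 in dendritic cells, 27 in T cells with cluster 11 and 1 in NK cells with cluster 24. At day 17 they were 1 each in CD8+ T cells, regulatory T cells, NK cells and NK cells with cluster 24 and 6 in T cells with cluster 11. For the difference between days they were 1 in CD8+ T cells, 7 in regulatory T cells, 2 in dendritic cells and 24 in T cells with cluster 11, where DESeq2 gave 5. Without the 5% of cells with most UMIs, calls between days were 0 in CD8+ T cells and 4 in macrophages, and the call in regulatory T cells between days and genotypes went to 0, as it did with a minimum of 1 cell per graft. A minimum of 20 cells could not be fitted for regulatory T cells, where under 2 WT grafts of day 17 remained. The shares of all genes called under these alternatives are not given here, so the counts are not read as particular to the list.

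Leaving out each graft in turn gave, between days, 3 to 8 calls in CD4+ T cells, 0 to 2 in CD8+ T cells, 0 to 2 in regulatory T cells, 0 to 1 in NK cells, 7 to 18 in macrophages, 1 to 2 in dendritic cells and 5 to 16 in NK cells with cluster 24. Between genotypes at day 10 it gave 0 to 1 in CD4+ T cells, 0 to 1 in regulatory T cells and 0 to 8 in T cells with cluster 11. For the difference between days it gave 0 to 2 in regulatory T cells and 0 to 6 in T cells with cluster 11.

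The share of cells with at least 3 UMIs of the list differed between Rnls mutant and WT grafts at day 17 by -34.7 percentage points. It differed by -11.5 for at least 1 UMI, -25.0 for at least 2, -18.4 without Tubb5, Stmn1, Hmgb2, Pcna and Dut, and -4.03 after thinning. Between days the difference was -4.75 points, -8.46 after thinning and -0.23 for 3 or more different genes.

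Mki67 between genotypes changed sign as the thinned share of cells with a UMI, to 0.192 points in all cells at day 17, 0.461 in CD8+ T cells at day 10, -0.734 in CD8+ T cells at day 17, 0.276 in regulatory T cells at day 10, -0.207 in NK cells at day 10, 0.029 in macrophages at day 17 and 1.33 in dendritic cells at day 17. As the unthinned share it changed sign at day 17 in CD8+ T cells (-2.02), regulatory T cells (-2.01) and NK cells (-1.68). Leaving out 1 graft, the Mki67 difference in CPM ran from -2.72 to 5.80 in all cells at day 17, from -2.29 to 0.81 and from -3.48 to 6.85 in CD8+ T cells at days 10 and 17, from -21.0 to 3.64 in regulatory T cells at day 10 and from -12.5 to 6.01 in dendritic cells at day 17. Clspn in all cells at day 17 went to -0.024 without the annotated cells, and Cenpa in dendritic cells at day 10 ran from -0.12 to 0.21.

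Of 35 called single genes named, the direction held under every alternative run, and 74 of 684 alternative values passed the threshold no longer.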
